A study of Oryctolagus cuniculus with 8 samples.

Results

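The circadian clock genes examined here were chosen by name. They were the period genes PER1, PER2 and PER3, the cryptochrome genes CRY1 and CRY2, CLOCK, the nuclear receptor genes NR1D1 and NR1D2, DBP and BHLHE40. Of these 10 genes, 7 had a row under that symbol among the 25666 genes of the table, each of them a single protein-coding row. PER1, PER3 and DBP were not analysed here. The question was whether the retinas differed in the level of their clock genes, between diets or between retinas of the same diet. The hour at which the retinas were collected is not given in the sources used here, so it could not be set beside the values.

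The RNA came from 8 retinas of wild-type male Chinchilla rabbits, with 2 retinas for each of 4 diets, after 6 months of feeding under 12 h of light and 12 h of dark. The animals were bought at 12 to 16 weeks of age. The normal diet (ND) was standard chow, the high-fat diet (HFD) was chow with 10% lard and 0.5% cholesterol, the high-sucrose diet (HSD) was chow with 40% sucrose, and the HFSD joined the lard (10%) and cholesterol (0.5%) with 35% of sucrose. Nothing in the sources says whether the 2 retinas of a diet came from separate animals, so the p values measure only the spread between these samples. Levels are given as FPKM, a count of fragments divided by gene length and library depth.

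The clock is a loop in which the proteins CLOCK (or its relative NPAS2) and BMAL1, the product of ARNTL, bind together to E-box sequences and switch on the period and cryptochrome genes, whose products return to the nucleus and shut the pair down. In a second loop the same pair switches on NR1D1 and NR1D2, whose products, the REV-ERB proteins, repress ARNTL, while the ROR proteins activate it. In tissues of animals kept in light and dark, NR1D1, NR1D2, DBP, CIART and the period genes therefore rise and fall roughly opposite to ARNTL and NPAS2, and a tissue sample taken at one hour shows one phase of the cycle. The retina holds clocks of its own in several cell types, and they pace melatonin synthesis, dopamine release and the sensitivity of the photoreceptors to light. In whole retina, fewer cells of a type and less RNA per cell cannot be told apart.

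The depths recovered from the steps of the FPKM values ran from 15764577 to 22785832 fragments. Behind each value of the clock genes lay between 216 and 892 fragments for BHLHE40, the gene with the fewest in any library, and between 6248 and 10109 for NR1D2, the gene with the most. Such numbers carry the counting error alone, as PCR duplicates cannot be recognised in them. The 3 genes of cone photoreceptors with a row, which mark the retina, summed to between 424 and 878 FPKM in the 8 retinas. Transcripts of skeletal muscle were found in HSD replicate 2, where 5 of the 7 muscle genes with a row, MYL1, ACTA1, CKM, TNNC2 and TNNT3, lay between 18.1 and 141 FPKM, against at most 0.707 FPKM in any other retina.

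CLOCK, which encodes the DNA-binding partner of BMAL1, was lowest on HFD and highest on HSD. Its level was 21.9 and 20.7 FPKM in ND replicates 1 and 2, 17.7 and 15.3 on HFD, 25.8 and 25.7 on HSD, and 21.0 and 24.0 on HFSD. Both HFD retinas lay below, and both HSD retinas above, all other retinas of the series. In order of the group means, HFD (16.5 ± 1.70, s.d., n = 2) lay below ND (21.3 ± 0.864), HFSD (22.5 ± 2.14) and HSD (25.7 ± 0.113), and the retinas of ND and HFSD, neighbours in this order, overlapped. For any difference among the 4 diets, limma gave an unadjusted p of 0.0077 and an adjusted p of 0.352.

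On the log2(FPKM + 1) scale of the tests, CLOCK was lower on HFD than on ND by a log2 fold change of -0.35 ± 0.12 (SE), with an unadjusted p of 0.0224 and an adjusted p of 0.998 in limma with Benjamini-Hochberg adjustment over the 12204 genes tested. Against ND the log2 fold change was 0.26 on HSD and 0.07 on HFSD, with limma unadjusted p of 0.0657 and 0.558. Over the 4 retinas of the sucrose diets, HSD and HFSD, the level was 24.1 ± 2.24 FPKM against 18.9 ± 2.97 in the 4 retinas of ND and HFD, a log2 fold change of 0.34 ± 0.09 with an adjusted p of 0.135 in limma. The sides overlapped, since HFSD replicate 1 lay below ND replicate 1. The fat diets, HFD and HFSD, held 19.5 ± 3.81 FPKM of CLOCK against 23.5 ± 2.62 on ND and HSD, a log2 fold change of -0.27 ± 0.09 with an adjusted p of 0.9996 in limma and an unadjusted p of 0.0155. None of these differences passed the correction over all genes.

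ARNTL, whose product is the partner of CLOCK, did not follow the same order of diets. It was at 43.7 and 53.8 FPKM on ND, 54.8 and 44.8 on HFD, 49.1 and 49.99 on HSD, and 48.3 and 50.3 on HFSD. Both its highest and its 2nd lowest value came from HFD, and the log2 fold changes against ND were 0.03, 0.03 and 0.02 on HFD, HSD and HFSD. NPAS2, the relative of CLOCK, had the same order of group means as CLOCK, with 3.12 ± 0.118 FPKM on HFD, 3.23 ± 0.452 on ND, 4.02 ± 0.880 on HFSD and 4.20 ± 1.002 on HSD (s.d., n = 2). Its retinas lay between 2.91 and 4.91 FPKM, HFD overlapped with ND, and ND with HFSD and HSD. The highest values were in HSD replicate 1 and HFSD replicate 1, with a log2 fold change of 0.28 ± 0.14 between sucrose diets and the others (limma adjusted p = 0.335).

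**Figure D1:**
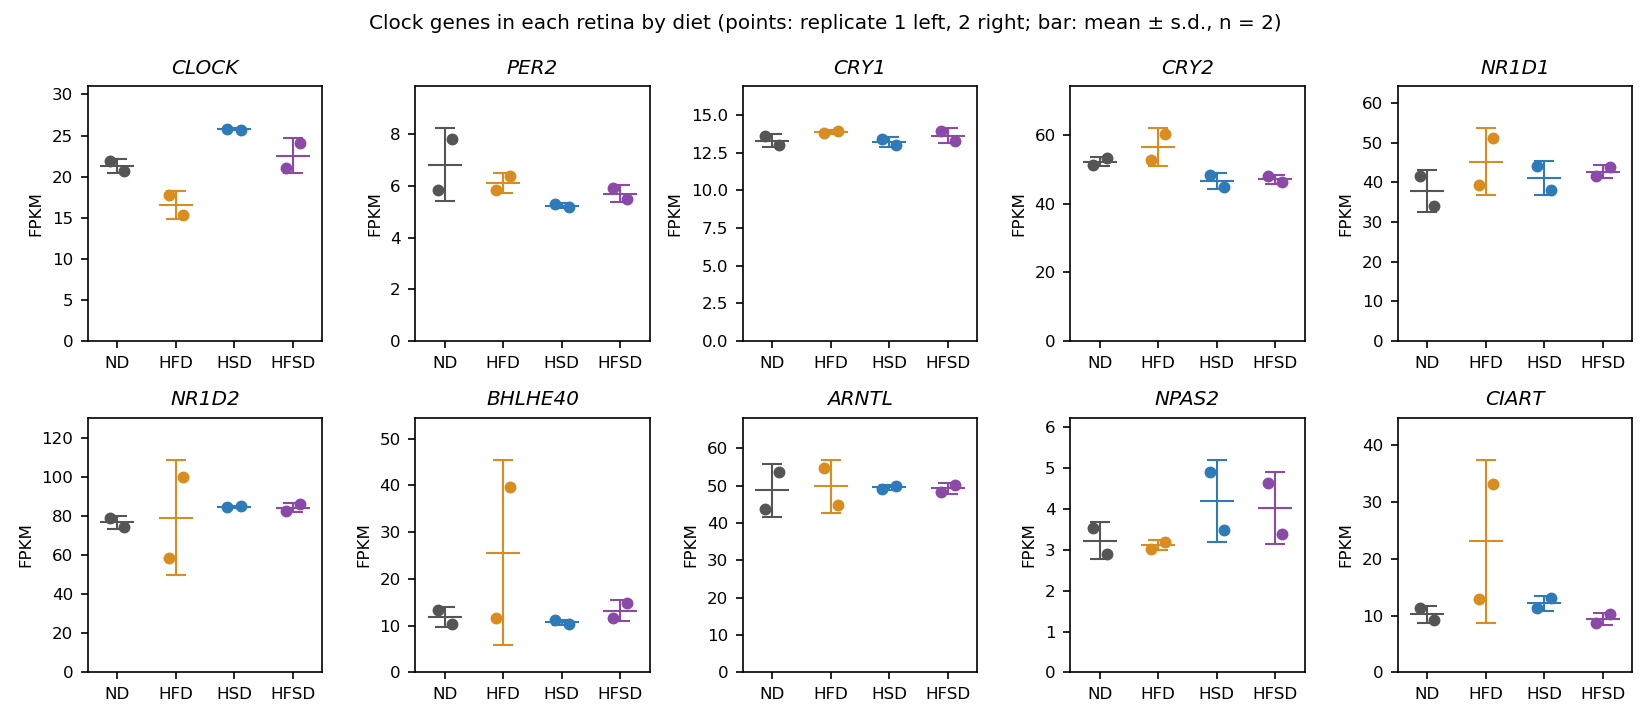
Level of 7 clock genes of the rule and of ARNTL, NPAS2 and CIART in each retina, in FPKM on axes that start at 0, by diet. Points are single retinas and bars the mean ± s.d. of 2 retinas. CLOCK is lowest in both HFD retinas, while the wide bars of NR1D2, BHLHE40 and CIART on HFD come from 1 retina far above the other.

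PER2, whose product is the core of the repressing complex, was the gene of the rule with the lowest level in every retina. It was at 5.83 and 7.81 FPKM on ND, 5.83 and 6.39 on HFD, 5.30 and 5.16 on HSD, and 5.92 and 5.48 on HFSD. The highest value stood in ND replicate 2 alone, and both HSD retinas lay below all others. The log2 fold change against ND was -0.13 on HFD, -0.32 ± 0.16 on HSD and -0.21 on HFSD, with limma unadjusted p of 0.452, 0.0864 and 0.224. Without ND replicate 2 the 3 changes were 0.057, -0.13 and -0.028.

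CRY1, a cryptochrome that blocks CLOCK and BMAL1 on DNA, was among the steadiest genes of the table. It lay between 13.0 and 14.0 FPKM in all 8 retinas, at 13.6 and 13.0 on ND, 13.8 and 14.0 on HFD, 13.4 and 13.0 on HSD, and 14.0 and 13.3 on HFSD. Its coefficient of variation was 2.93%, while counting error alone would give about 3.95% for its 552 to 837 fragments. Only 0.107% of the genes tested had a smaller standard deviation over the 8 retinas. The 95% confidence intervals of its log2 fold change were -0.19 to 0.31 on HFD, -0.26 to 0.24 on HSD and -0.21 to 0.28 on HFSD.

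CRY2, the second cryptochrome, was at 51.4 and 53.3 FPKM on ND, 52.7 and 60.4 on HFD, 48.4 and 45.0 on HSD, and 48.0 and 46.3 on HFSD. All 4 retinas of the sucrose diets lay below all 4 of the others, at 46.9 ± 1.59 against 54.4 ± 4.05 FPKM (s.d., n = 4 each). The log2 fold change was -0.21 ± 0.08, with an unadjusted p of 0.0300 and an adjusted p of 0.228 in limma. An exact 2-sided permutation test of this gene alone gave p = 0.0286, the smallest that 4 retinas against 4 allow. Any gene whose sides do not overlap reaches that p, so it only restates the lack of overlap, seen in 12.9% of all tested genes. Within the sucrose diets HSD and HFSD overlapped, and so did ND and HFD.

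NR1D1 (REV-ERB alpha) was at 41.7 and 34.1 FPKM on ND, 39.4 and 51.2 on HFD, 44.2 and 38.1 on HSD, and 41.5 and 43.9 on HFSD. The lowest and the highest value came from ND replicate 2 and HFD replicate 2, and the ranges of the 4 diets overlapped. The log2 fold change against ND was 0.25 ± 0.16 on HFD, 0.12 on HSD and 0.17 on HFSD, with limma unadjusted p of 0.173, 0.490 and 0.318. These values moved with single retinas, from 0.061 without HFD replicate 2 to 0.43 without HFD replicate 1 on HFD, and from -0.022 and 0.034 without ND replicate 2 to 0.26 and 0.31 without ND replicate 1 on HSD and HFSD. In mammals this gene overlaps THRA on the opposite strand, and it is not given whether reads were counted by strand, so fragments of the neighbours may not be fully told apart.

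NR1D2 (REV-ERB beta) had the highest level of the clock genes of the rule. It was at 79.0 and 74.5 FPKM on ND, 58.3 and 100.04 on HFD, 84.5 and 85.1 on HSD, and 82.7 and 86.0 on HFSD. The retinas of HSD and HFSD lay close together and above both ND retinas, while the 2 HFD retinas held the lowest and the highest value of the series. The log2 fold change on HFD was -0.00 ± 0.22. It was 0.38 without HFD replicate 1 and -0.39 without HFD replicate 2, so that each HFD retina decided its sign. In HSD and HFSD it was 0.14 in both, with limma unadjusted p of 0.538 and 0.560.

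BHLHE40 (DEC1), which encodes a repressor that competes for E-boxes and is also induced by light, low oxygen and other stimuli, was the most variable of the 7 genes. It was at 13.4 and 10.4 FPKM on ND, 11.6 and 39.6 on HFD, 11.1 and 10.3 on HSD, and 11.7 and 14.8 on HFSD. One retina, HFD replicate 2, stood 3.43-fold above the median of the other 7, which lay between 10.3 and 14.8 FPKM. The standard deviation of its log2 values exceeded that of 96.2% of the genes tested.

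The change of BHLHE40 on HFD rested on that retina. The log2 fold change against ND was 0.82 ± 0.47 (limma unadjusted p = 0.121, adjusted p = 0.998), and -0.03 without HFD replicate 2. The mean FPKM of HFD plus 1 was 2.06-fold that of ND plus 1, which lay above the upper limit of the fold rule of the study, applied here to the group means. In HFD, 1 of 7 clock genes thus passed the fold rule, where 1.76% of all protein-coding genes passed, and 0 of 7 did without that retina. In HSD and HFSD 0 of 7 passed, against 3.95% and 3.43% of all genes.

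CIART, another repressor of CLOCK and BMAL1 and a gene outside the rule, had the same retina at its top. Its level was 11.3 and 9.19 FPKM on ND, 12.9 and 33.2 on HFD, 11.3 and 13.1 on HSD, and 8.68 and 10.2 on HFSD. HFD replicate 2 stood 2.94-fold above the median of the others. Both HFD retinas lay above both ND retinas, with a log2 fold change of 0.96 ± 0.37 (limma unadjusted p = 0.0326, adjusted p = 0.998). Without HFD replicate 2 it was 0.32 ± 0.19 (limma unadjusted p = 0.139).

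With limma and Benjamini-Hochberg adjustment, 0 of 7 clock genes had an adjusted p under 0.05 in any comparison, and 0 of 7 did with voom on the recovered fragments. Of all 12204 genes the same test called 0.00819% on HFD against ND, 0.0574% on HSD, 0.0164% on HFSD, 0.344% between sucrose diets and the others, 0.00819% between fat diets and the others, 0.00819% for the interaction of fat and sucrose, and 0.041% for any difference among the 4 diets. At an unadjusted p under 0.05, limma gave 1 of 7 clock genes on HFD (CLOCK, 4.31% of all genes), 0 on HSD (7.2%), 0 on HFSD (8.07%), 2 between sucrose diets and the others (CLOCK and CRY2, 18.3%), 1 between fat diets and the others (CLOCK, 3.2%), 0 for the interaction (3.74%) and 1 for any difference (CLOCK, 9.81%). With voom the numbers were 1, 1, 0, 1, 1, 0 and 1. The ND retinas serve all 3 diet comparisons, which therefore share their deviations.

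The median log2 fold change of the 7 genes was 0.06 on HFD, -0.01 on HSD and 0.07 on HFSD, where the median of all tested genes was 0.01, -0.00 and -0.00. The sides did not overlap for 1 of 7 genes between sucrose diets and the others (CRY2), where 12.9% of all tested genes did not, and for 0 of 7 between fat diets and the others, where 1.34% did not. The confidence intervals give the range of change that the data allow for each gene. The farthest bound for CRY1 and CRY2 in a diet against ND was -0.42, for CRY2 on HSD, while the interval of BHLHE40 on HFD ran from -0.28 to 1.92.

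**Figure D2:**
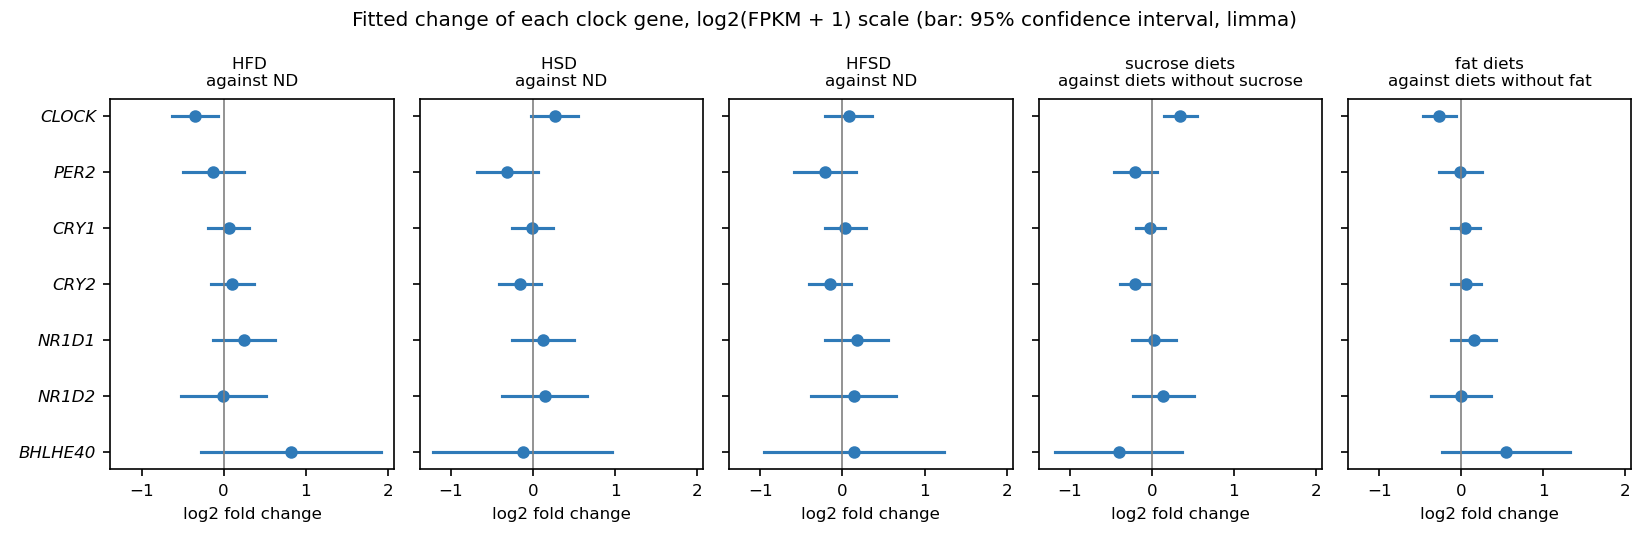
Fitted log2 fold change of each of the 7 clock genes on the log2(FPKM + 1) scale in 5 comparisons, with points for the estimate and bars for the 95% confidence interval from limma. The bar of CLOCK lies away from 0 on HFD, in the sucrose diets and in the fat diets, that of CRY2 in the sucrose diets alone, and those of BHLHE40 are the widest.

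Retinas of the same diet were compared next, since they share the feeding. In ND, HSD and HFSD, 0 of 7 clock genes differed by 1.5-fold or more in FPKM plus 1 between the 2 retinas, where 11.1%, 6.56% and 5.15% of all tested genes did. In HFD, 2 of 7 did, NR1D2 by 1.70-fold and BHLHE40 by 3.23-fold, where 10.7% of all genes did. The median fold between the 2 retinas over the 7 genes was 1.06 on ND, 1.148 on HFD, 1.03 on HSD and 1.06 on HFSD, against 1.14, 1.17, 1.10 and 1.10 over all tested genes. In each diet the median clock gene was thus no farther apart than the median gene of the table.

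HFD replicate 2 held the highest value of the 8 retinas for 4 of the 7 clock genes (CRY2, NR1D1, NR1D2 and BHLHE40), where it did so for 11.9% of all tested genes. It held the lowest value for 1, CLOCK, where it did so for 13.2%. Over the whole table the retina with the most extremes was HFD replicate 1, highest for 22.3% and lowest for 19.3% of all tested genes. Among the 7 clock genes HFD replicate 1 was highest for 0 and lowest for 1, NR1D2. HSD replicate 2, the retina with muscle transcripts, held the lowest value for 4 of 7 (PER2, CRY1, CRY2 and BHLHE40) against 13.4% of all genes, but CRY1 and BHLHE40 were nearly as low in ND replicate 2, at 13.0 and 10.4 FPKM. These retinas were singled out after their values were seen.

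**Figure D3:**
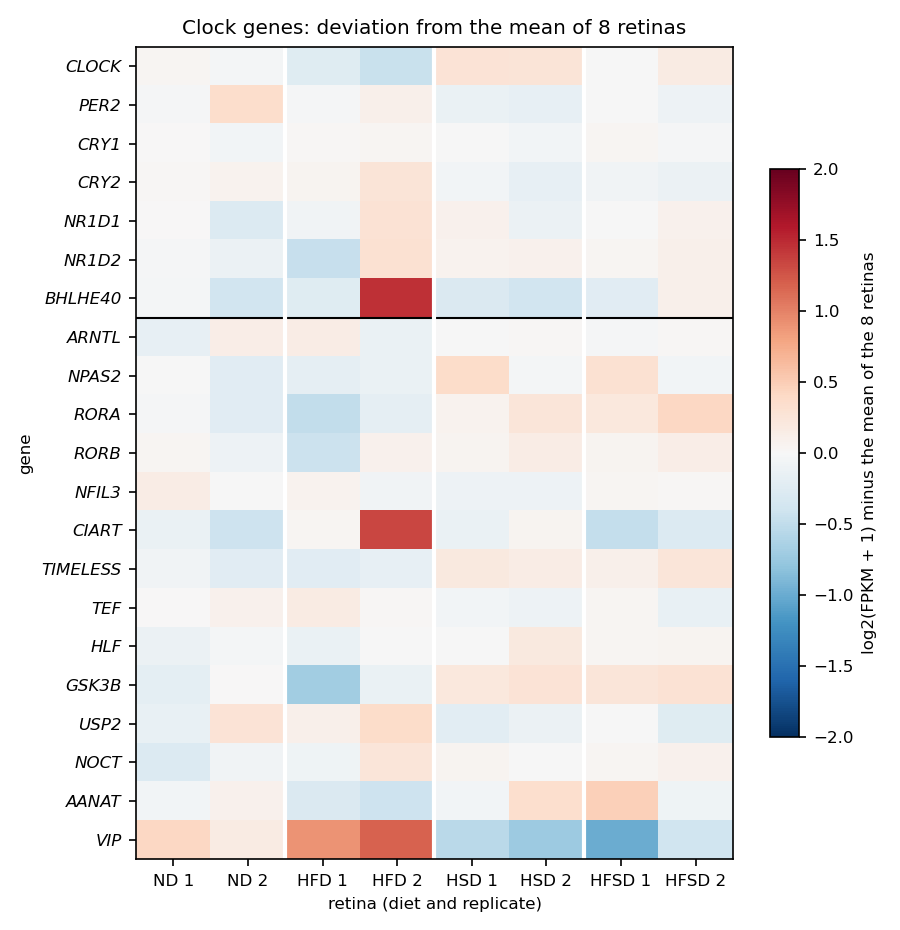
Deviation of log2(FPKM + 1) from the mean of the 8 retinas for the 7 clock genes of the rule (above the line) and 14 other clock-related genes (below it), 1 column per retina. Red is above and blue below the mean, and the column of HFD replicate 2 is the reddest for NR1D1, NR1D2, BHLHE40 and CIART and the bluest for CLOCK.

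To set the 2 arms of the clock against each other, log2(FPKM + 1) was centred on the mean of the 8 retinas for each gene and averaged over each arm. The genes of the arms were picked from general knowledge. One arm held 6 genes that commonly peak together, PER2, NR1D1, NR1D2, CIART, TEF and HLF, and the other held 5, ARNTL, NPAS2, CLOCK, NFIL3 and CRY1, which commonly peaks later than the period genes. CRY2 and BHLHE40 were placed in neither. The first arm minus the second was -0.05 and -0.02 on ND, -0.04 and 0.49 on HFD, -0.13 and -0.03 on HSD, and -0.13 and -0.07 on HFSD. In 7 of the 8 retinas it thus lay between -0.13 and -0.02, and in HFD replicate 2 it was above all of them. That retina was the highest in the first arm, at 0.34, and the lowest in the second, at -0.15.

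The difference in HFD replicate 2 was 0.29 with CIART left out, where the other retinas lay between -0.11 and 0.05. With the clock genes of the rule alone, PER2, NR1D1 and NR1D2 against CLOCK and CRY1, it was 0.43, where the other retinas lay between -0.17 and 0.03. Of the 11 genes of the arms, 4 had their extreme in that retina, NR1D1, NR1D2 and CIART at the top and CLOCK at the bottom. Of all tested genes 11.9% were highest and 13.2% lowest in that retina. As the retina was singled out after its values were seen, nothing particular to the arms is read from this count. The other genes stood inside the range of the other retinas. TEF was at 68.0 FPKM there, HLF at 121 and PER2 at 6.39, below ND replicate 2. In the second arm NPAS2 was at 3.20 FPKM, CRY1 at 14.0, its 2nd highest value, and ARNTL at 44.8, lower still in ND replicate 1. NFIL3, a repressor that opposes the PAR bZIP factors, was at 19.3 FPKM, inside its range of 18.9 to 22.8.

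The ratio of NR1D1 to ARNTL, a pair that swings in opposite directions over the day, was 0.953 and 0.634 on ND, 0.718 and 1.14 on HFD, 0.899 and 0.761 on HSD, and 0.860 and 0.873 on HFSD. It was highest in HFD replicate 2 and lowest in ND replicate 2, and the diets overlapped. The ratio of PER2 to ARNTL was highest in ND replicate 2, at 0.145, and 0.143 in HFD replicate 2, with the others between 0.103 and 0.133. That of NR1D2 to CLOCK, genes that both had their extreme in HFD replicate 2, was 6.53 there and between 3.27 and 3.94 in the others. ND replicate 2, lowest for NR1D1, held the highest PER2.

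**Figure D4:**
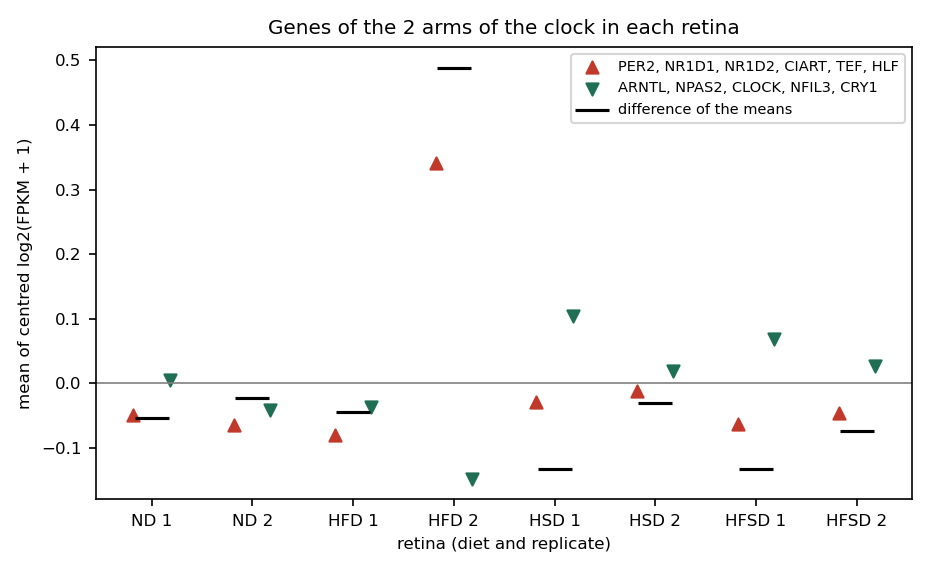
Mean of centred log2(FPKM + 1) over the genes of each arm of the clock in each retina, with triangles for the arms and a dash for their difference. The difference is 0.49 in HFD replicate 2 and between -0.13 and -0.02 in the other 7 retinas.

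Other genes stood apart in the same retina. Of 23 immediate early genes listed, which cells switch on within minutes of a stimulus, 12 were tested, and HFD replicate 2 held the highest value for 7 of them and ND replicate 1 for 5, where these retinas held it for 11.9% and 9.98% of all tested genes. BTG2 was at 153 FPKM in HFD replicate 2 and at most 14.8 elsewhere, DUSP1 at 55.2 against at most 7.57, NR4A1 at 95.8 against at most 31.6, and ATF3 at 53.5 against at most 9.70. EGR1 and FOS had their highest values, 1548 and 285 FPKM, in ND replicate 1. The summed level of the 17 immediate early genes with a row was 2199 and 652 FPKM on ND, 145 and 989 on HFD, 568 and 339 on HSD, and 554 and 296 on HFSD. The sum was highest in ND replicate 1, where EGR1 made up most of it. In limma 0 of the 12 genes had an adjusted p under 0.05 on HFD and 1 an unadjusted p under 0.05 (EGR1, lower), where 0.00819% and 4.31% of all tested genes did. The part of these genes, and of the hour of collection, in the values of HFD replicate 2 was not tested.

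Markers of cell types were set beside the sucrose split, along which CLOCK and CRY2 had an unadjusted p under 0.05, as did 18.3% of all tested genes. Of the 4 Müller cell genes, 2 had a limma unadjusted p under 0.05, both lower, and their sum lay between 1779 and 1898 FPKM in the retinas of the sucrose diets and between 2529 and 3715 in the others. SLC1A3, another of the 4, lay between 179.5 and 203 FPKM in all retinas. The 3 cone genes with a row were all higher at a limma unadjusted p under 0.05, with sums between 721 and 878 FPKM against 424 to 568. Of them 1 was called, OPN1SW (log2 fold change of 1.64, adjusted p of 0.0098 in limma with Benjamini-Hochberg adjustment), where 0.344% of all tested genes were.

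Genes of myelin, pigment epithelium and microglia stood lower on sucrose. All 4 myelin genes had an unadjusted p under 0.05 in limma, with a median log2 fold change of -2.05 and sums of 33.1 to 131 FPKM against 79.3 to 618. All 6 pigment epithelium genes tested had one too (median of -1.35), and the 7 with a row summed to 22.2 to 59.9 FPKM against 42.7 to 303. The same genes were also lower on HFD than on ND, where CLOCK was lower too, with 5 of 6 at a limma unadjusted p under 0.05 (4.31% of all tested genes), a median of -1.96 and sums of 78.3 and 42.7 FPKM against 303 and 219.9. Between the fat diets and the others 4 of 6 were lower at that p (3.2% of all tested genes). On sucrose, 3 of 5 microglia genes had an unadjusted p under 0.05 in limma, all lower, with a median of -0.53 and sums of 5.56 to 8.78 FPKM against 8.71 to 13.7. None of these 15 genes passed the correction, and their sums overlapped between the diets with and without sucrose.

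Of the other lists, the number of tested genes with an unadjusted p under 0.05 in limma for sucrose was 1 of 4 for bipolar cells, 1 of 2 for muscle, 3 of 7 for glucocorticoid-responsive genes and 3 of 8 for hypoxia-responsive genes. It was 0 of 3 for amacrine cells, 0 of 4 for ganglion cells, 0 of 3 for endothelium, 0 of 5 for fibroblasts and 0 of 12 for immediate early genes, and no lens gene reached the level for a test. All 12 immediate early genes were nonetheless lower on sucrose, with a median log2 fold change of -0.60 against -0.01 for all tested genes. The highest value of each lay in ND replicate 1 or HFD replicate 2. None of the marker genes named here was listed at 0 in every retina. The part of these cells in the values of CLOCK and CRY2, on sucrose or on fat, was not tested.

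Pairs of clock genes were compared over the 8 retinas with exact permutation tests over all orders of the retinas, 21 pairs in all. The Pearson correlations of log2(FPKM + 1) ran from -0.90 to 0.81, and 2 pairs had an adjusted p under 0.05. CLOCK was lower where CRY2 was higher (r = -0.90, exact p = 0.0032, Benjamini-Hochberg adjusted p = 0.0456; Spearman's coefficient = -0.79, exact p = 0.0279, adjusted p = 0.241). BHLHE40 was higher where NR1D1 was higher (r = 0.81, exact p = 0.0043, adjusted p = 0.0456; Spearman's coefficient = 0.74, exact p = 0.0458, adjusted p = 0.241). By rank, 0 of 21 pairs passed the correction, and by Pearson's r 0 of 21 did with any retina other than HSD replicate 1 left out.

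HFD replicate 2 lay at the end of both relations. Without the 2 retinas farthest from the median of CRY2 (HFD replicate 2 and HSD replicate 2) its r with CLOCK was -0.69, with an exact p of 0.128 by permutation of 6 retinas. Without those farthest from the median of NR1D1 (ND replicate 2 and HFD replicate 2) its r with BHLHE40 was 0.58, with an exact p of 0.222. On these 6 retinas neither relation had a p under 0.05, while both kept their sign over fewer points and a narrower range. Without HFD replicate 2 alone the r was -0.77 and 0.65 over 7 retinas, with exact p of 0.0442 and 0.111 by permutation, unadjusted. For deviations from the mean of each diet the correlations were -0.78 and 0.84, given without a test. In such deviations the 2 retinas of a diet mirror each other and are not independent points. NR1D1 and NR1D2, which are commonly described as rising together, had an r of 0.62 (exact p = 0.104, adjusted p = 0.272), and PER2 and NR1D1 one of -0.34 (exact p = 0.391, adjusted p = 0.587).

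**Figure D5:**
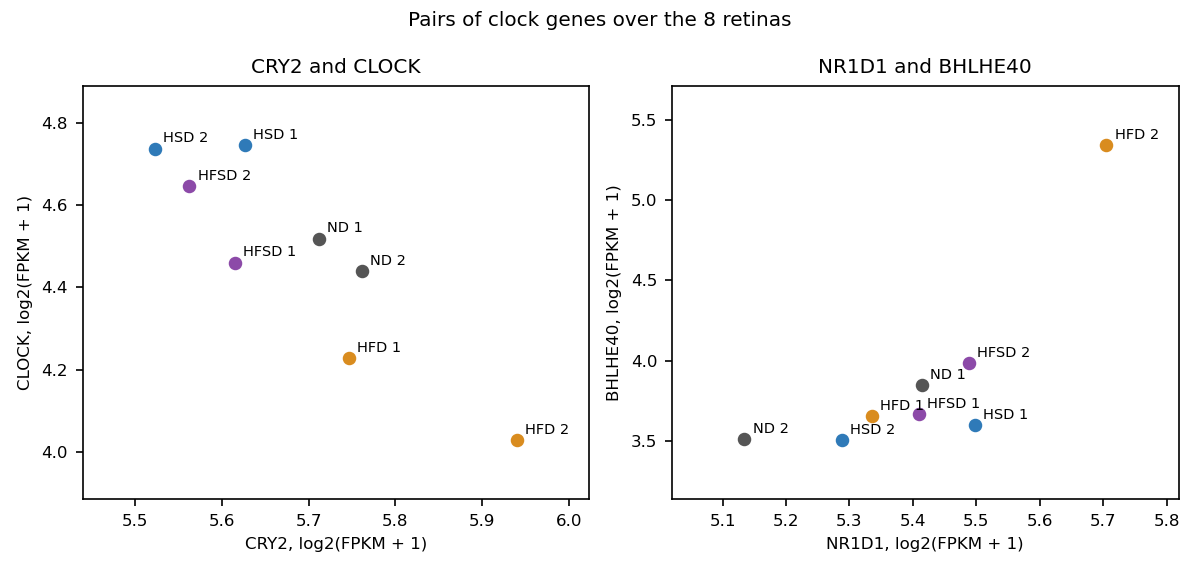
CRY2 against CLOCK and NR1D1 against BHLHE40, each as log2(FPKM + 1), with 1 point per retina coloured by diet. HFD replicate 2 lies at the end of both clouds, and without the 2 retinas farthest on the x axis r is -0.69 and 0.58.

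ARNTL was set against the 7 genes after the data were seen. Its r was -0.66 with NR1D1, -0.68 with NR1D2 and -0.56 with BHLHE40, with exact p of 0.0714, 0.0604 and 0.161 by permutation and adjusted p over 7 pairs of 0.250, 0.250 and 0.376. It was -0.40 with CRY1, -0.23 with CRY2, 0.20 with PER2 and 0.10 with CLOCK, with exact p of 0.319, 0.581, 0.652 and 0.807 by permutation. None of the 7 pairs passed the correction.

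Beyond the genes of the rule, 38 genes of the wider clock were listed from general knowledge, of which 30 had a row and 28 were tested. Of these, 1 was called in a comparison, the sucrose diets against the others, where 0.344% of all tested genes were called. It was VIP, a peptide of amacrine cells in the retina and of the central clock in the brain, which fell in the sucrose diets. VIP was at 3.57 and 2.81 FPKM on ND, 5.36 and 6.73 on HFD, 1.36 and 1.06 on HSD, and 0.719 and 1.596 on HFSD. All retinas of the sucrose diets lay below all others, and both HFD retinas above both ND retinas. The log2 fold change between sucrose diets and the others was -1.33 ± 0.17, with an adjusted p of 0.0385 in limma with Benjamini-Hochberg adjustment. It was called in 3 of 14 alternative settings, 1 of them among the 8 in which a retina was left out, with adjusted p from 0.0392 to 0.115. The change stayed between -1.93 and -1.18 in all of them, so that its direction and rough size held where the call did not. Without HFD replicate 2 or HSD replicate 2, both singled out after their values were seen, the limma adjusted p of VIP was 0.0919 and 0.115, and 0 of the 28 genes were called.

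At an unadjusted p under 0.05 between sucrose diets and the others, 6 of the 28 wider genes stood, 3 higher and 3 lower, where 18.3% of all genes did. RORA, an activator of ARNTL, was at 28.2, 24.4, 20.1 and 25.2 FPKM in the ND and HFD retinas and at 30.2, 34.2, 33.5 and 38.6 on HSD and HFSD, without overlap (log2 fold change of 0.47 ± 0.11, limma adjusted p = 0.113). GSK3B, a kinase that acts on several clock proteins, lay between 10.2 and 17.3 FPKM without sucrose and between 20.1 and 21.1 with it (0.51 ± 0.13, adjusted p = 0.138 in limma). TIMELESS, a partner of the clock and of DNA replication, lay between 5.88 and 6.64 FPKM against 7.62 and 8.48 (0.34 ± 0.09, adjusted p = 0.1497 in limma). These 3 and CLOCK were thus higher on the sucrose diets without passing the correction. The sides did not overlap for 5 of the 28 genes that were higher (these 3, HLF and CSNK1A1) and 1 that was lower (VIP). Of all tested genes 12.9% did not overlap. USP2, a deubiquitinase of clock proteins, and ADCYAP1R1, the receptor of the peptide PACAP, were lower, with log2 fold changes of -0.29 and -0.39 and limma adjusted p of 0.269 and 0.270. ADCYAP1R1 and VIP also passed the lower limit of the fold rule on HSD, at 0.609 and 0.527, and VIP on HFSD, at 0.515, while VIP and CIART passed the upper limit on HFD, at 1.68 and 2.14. Without HFD replicate 2 the values of VIP and CIART on HFD were 1.52 and 1.24, inside the limits. That of ADCYAP1R1 was 0.752 without ND replicate 2 and 0.661 without HSD replicate 2, also inside them, while VIP on HSD and HFSD stayed past the limit whichever retina was left out.

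For the other comparisons, 2 of the 28 wider genes had a limma unadjusted p under 0.05 on HFD (CIART and VIP, both higher), where 4.31% of all genes did. There were 3 on HSD (TIMELESS higher, ADCYAP1R1 and VIP lower, against 7.2% of all genes) and 3 on HFSD (RORA and TIMELESS higher, VIP lower, against 8.07%). There were 0 for fat diets (3.2%), 2 for the interaction (CIART and VIP, 3.74%) and 4 for any difference (VIP, RORA, GSK3B and TIMELESS, 9.81%), with none called. The median log2 fold change of the 28 genes was -0.02 on HFD, 0.03 on HSD and 0.07 on HFSD. AANAT, the enzyme that paces melatonin synthesis, lay between 16.8 and 31.8 FPKM, with its lowest values on HFD. The casein kinase genes CSNK1D and CSNK1A1, whose products mark the period proteins for breakdown, lay between 46.4 and 60.3 and between 122 and 132 FPKM.

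The genes whose pattern over the 8 retinas was most like that of each clock gene were taken from 9876 others by Pearson's r, as a description. For CLOCK they were PLEKHM3 (r = 0.98), GCSH (0.95) and BTC (0.95), and for CRY2 they were ERRFI1 (0.99), PARD3 (0.97) and USH1C (0.96). PER2 was most like FAM129B, PNMA1 and NTRK2, each with r = 0.97. For NR1D1 they were RHBDD1 (0.97), BCL11A (0.95) and ZNF41 (0.91), for NR1D2 UBE4A (0.98), PAN3 (0.97) and FAM160A2 (0.96), and for CRY1 ABCB10 (0.92), VAMP1 (0.91) and MAP7D1 (0.91). None of these genes was on the clock lists.

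BHLHE40 was most like ARRDC3 (0.97), GRIK2 (0.96) and DCP1B (0.95), and here the likeness was weaker without 1 retina. Without HFD replicate 2 the r of the 3 was 0.77, 0.73 and 0.18 over 7 retinas, while for CLOCK it was 0.98, 0.91 and 0.93 and for PER2 0.99, 0.97 and 0.97. The likeness of PER2 was not examined without ND replicate 2, which held its highest value. ARRDC3 was at 36.7 FPKM in HFD replicate 2 and between 14.8 and 21.8 in the others.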

How the data were processed

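The deposited table holds FPKM per gene for 8 libraries, which the authors made from TRIzol-extracted retinal RNA and TruSeq libraries by trimming reads, mapping them with TopHat2 and computing FPKM in R. The build and annotation are not given in the sources used here, so genes are named by symbol without coordinates or sequences. No value column was left out (0). FPKM were whole multiples of 1 fragment for 100% of positive values (within 0.2 fragments), which gave depths, lengths and fragments. Tested on simulated data of 1000 genes, this recovery was exact for 99.6%.

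The 12204 protein-coding genes that reached 1 FPKM in 2 or more libraries were tested on log2(FPKM + 1) with limma 3.58.1 in R 4.3.3, with a mean-variance trend and all 8 libraries in 1 model, adjusted by the Benjamini-Hochberg method and called under 0.05. A fold change on this scale understates that of low genes. In simulated data with 12021 genes, limma called 64 of 100 genes changed by a log2 of 1 and 88 of 100 changed by a log2 of 2 in HFD against ND. The changed genes were well covered and were changed together, which eases the adjustment. Smaller changes were not simulated, so these shares do not apply to most of the changes reported here. The authors' fold rule, (FPKM + 1) over (control FPKM + 1), is given without saying how the 2 retinas of a diet were combined, and was applied here to group means of all 19293 protein-coding genes. Correlations used exact permutation in Python 3.11.15 with SciPy 1.17.1. Median-of-ratios factors lay between 0.995 and 1.02. Alternatives were a pseudocount of 0.1, no filter, median-of-ratios scaling, no trend, voom on recovered fragments, a replicate block, fits of the 4 libraries compared and each retina left out. Wider clock genes named are ARNTL, NPAS2 and CIART, those under an unadjusted p of 0.05 or past the fold rule, and a few chosen after their values were seen. The clock genes, lists and tests were chosen with earlier results of these data known. One list of marker genes is not reported here.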

Additional observations from a re-analysis of the deposited data

Results flagged for a closer look

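Each clock gene was searched for a retina far from the other 3 on either side of the sucrose and of the fat split, by Dixon's gap test at 95%. Of 140 such groups of 4 retinas, over 35 genes, 7 held one, and chance gives about 1 in 20, or 7.0. BHLHE40 in HFD replicate 2 (39.6 FPKM) lay far above the other retinas without sucrose (10.4 to 13.4) and, at the same value, above the other retinas on fat (11.6 to 14.8). CIART in HFD replicate 2 (33.2 FPKM) lay far above the other retinas without sucrose (9.19 to 12.9). FBXW11, a part of the complex that marks period proteins for breakdown, was at 31.7 FPKM in HFD replicate 2 and between 34.4 and 34.5 in the other retinas on fat. OPN4, the melanopsin gene, was at 2.11 FPKM in HFSD replicate 2 against 0.821 to 1.01 in the other retinas on sucrose. DDB1 was at 262 FPKM in ND replicate 2 against 205 to 215, and CSNK2A1 at 64.4 in HSD replicate 2 against 67.1 to 67.6, among the retinas without fat. The interaction of fat and sucrose passed the correction for none of the 7 clock genes in limma, with 0 of them at an unadjusted p under 0.05.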

How the results depend on the processing

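The number of clock genes called stayed at 0 of 7 in each comparison under every alternative run. Of 511 alternative estimates of the 35 log2 fold changes of these genes, 486 kept their sign. Many of these could not differ from the main estimate. The filter, the trend, the replicate block and the fits of the 4 libraries compared leave it unchanged. Leaving out a retina of a diet outside the comparison does so too. The count thus overstates how steady the signs were. With voom, CRY1 turned to 0.027 on HSD and 0.024 between sucrose diets and the others. The other changes came with a retina left out, over which PER2 ran from -0.31 to 0.057 on HFD and from -0.10 to 0.080 between fat diets and the others. CRY1 ran from -0.038 to 0.022 on HSD and from -0.033 to 0.00013 for sucrose, CLOCK from -0.018 to 0.17 on HFSD, NR1D1 from -0.022 to 0.26 on HSD and from -0.069 to 0.12 for sucrose. NR1D2 ran from -0.39 to 0.38 on HFD, from -0.050 to 0.33 for sucrose and from -0.20 to 0.19 for fat, and BHLHE40 from -0.026 to 1.67 on HFD, from -0.30 to 0.040 on HSD, from -0.024 to 0.31 on HFSD and from -0.82 to 0.021 for sucrose. The number past the fold rule on HFD was 0 without HFD replicate 2 and 1 without any other retina, and the number of correlated pairs past the correction was 2 without HSD replicate 1 and 0 without any other. The replicate numbers did not pair the retinas (correlations of deviations between -0.17 and 0.08), and a replicate block gave 0 called clock genes in each comparison and 25 genes of the table called for sucrose in place of 42. Over the table that number ran from 4 without HSD replicate 2 to 82 without ND replicate 1, and with a retina left out the change of CLOCK for sucrose ran from 0.29 to 0.39. With 2 retinas per diet the intervals are wide, and a gene that was not called may still have changed by any amount inside its interval.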
